A study of Mus musculus with 2 samples.

Results

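The mouse microRNAs (miRNAs) mmu-miR-21a-5p, mmu-miR-34a-5p, mmu-miR-34a-3p and mmu-miR-224-5p are 4 mature strands from 3 hairpins, known from studies of liver tumours and written below without the species prefix. They were taken by name from a deposited table of 281 mature mouse miRNAs, and all 4 were found. The table compares the liver of 1 mouse labelled DICER1 mutant with that of 1 wild-type mouse, both on the C57BL/6 background and aged 3 months. The column headers name the mutant hDICER1_Mut, and the series title names DICER1 syndrome, in which inherited variants of the gene predispose people to tumours. The labels name no allele and no promoter, and do not say whether the mutant sample was tumour, while the design text speaks of both normal liver and cancer. The libraries held 18480608 reads (mutant) and 11432192 reads (wild type), as implied by the deposited RPM, the reads of a miRNA per 1000000 reads of its library. With 1 library per genotype, differences between genotypes cannot be told apart from differences between animals or libraries, no p-value was computed, and every 95% interval below covers counting error only.

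miRNAs are cut from hairpins by Dicer, the enzyme encoded by DICER1, which frees the 5p strand with its RNase IIIb domain and the 3p strand with its RNase IIIa domain. A mature strand represses messenger RNAs that pair with its seed, bases 2 to 8. miR-21a-5p is an abundant miRNA of many tissues, known for repressing the tumour suppressor Pdcd4. miR-34a-5p is switched on by the tumour suppressor p53 after DNA damage and represses cell-cycle genes, and miR-34a-3p is the rarer strand of the same hairpin. miR-224-5p comes from an intron of the gene for a GABA receptor subunit and is known to be raised in human hepatocellular carcinoma. The messenger RNA targets were not measured in these libraries.

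The mature strands are shown first because the seed, in capitals, shows which other listed miRNAs could pair with the same targets. The sequences are those of RefSeq on GRCm38.p6, the assembly also called mm10, in which all 4 names were matched.
miR-21a-5p: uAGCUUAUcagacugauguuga
miR-34a-5p: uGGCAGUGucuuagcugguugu
miR-34a-3p: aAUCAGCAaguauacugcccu
miR-224-5p: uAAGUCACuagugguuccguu
The 4 seeds differed from each other. Of 1679 mature names in the sequence table, none other carried the seed of miR-34a-3p or of miR-224-5p. The seed of miR-21a-5p was shared with miR-21c, which is listed too. Among the names in that table the seed of miR-34a-5p was shared with miR-34b-5p, miR-449a-5p and miR-449c-5p, of which the first and second are listed, and miR-449c-5p is not analysed here. The sequence of miR-34c-5p was not compared, and it is counted with the family below by its name.
miR-34b-5p: aGGCAGUGuaauuagcugauugu
miR-449a-5p: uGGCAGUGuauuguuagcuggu
miR-21b: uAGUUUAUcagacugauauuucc
miR-21c: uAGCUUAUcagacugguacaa
miR-34a-5p and miR-34b-5p had 19 identical bases in 23 aligned columns, and miR-34a-5p and miR-449a-5p had 17 in 23. miR-21c opened with the same 15 bases as miR-21a-5p, and miR-21b shared a run of 13 bases with it.

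The hairpin of miR-21a lies on the minus strand of chromosome 11 at chr11:86584067-86584158, wholly within the 3′ untranslated part of exon 12 of Vmp1, a gene of autophagy, by the GENCODE annotation. The hairpin of miR-34a lies on the plus strand at chr4:150068454-150068555, and its last 17 bases overlap an unclassified annotated transcript, Gm37795. It is printed with both mature strands in capitals, since the results below turn on their balance.
mir-34a hairpin: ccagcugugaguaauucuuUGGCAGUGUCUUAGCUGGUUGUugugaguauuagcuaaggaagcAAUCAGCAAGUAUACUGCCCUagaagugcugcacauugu
The 5p and 3p strands are separated by 22 bases of loop. The hairpin of miR-224 lies on the minus strand at chrX:72261031-72261112, within an intron of Gabre, and the hairpin of miR-452 starts 1193 bases away in the same gene.

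Every signed fold in the authors' deposited table was at least 2 in size, on a scale of the authors' own that makes a mutant to wild-type ratio 2.38-fold smaller than the RPM ratio. This bears on each of the 4 strands, because they are compared with a table that holds no miRNA near equality on that scale. Counting only those with 10 or more reads in total, the 171 that the authors' deposited table gives as higher began at an RPM ratio of 4.78, and the 105 it gives as lower ended at 1.19. By RPM, 171 of the 276 miRNAs with enough reads (62%) exceeded 2-fold towards the mutant with an interval excluding equality, and 20 (7.25%) were lower to that extent. miR-34a-5p, miR-34a-3p and miR-224-5p were among the 171 and miR-21a-5p was called neither, so 3 of the 4 were higher in a table where 62% of all were.

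miR-21a-5p was by far the most abundant of the 4 strands and had nearly the same RPM in both livers. It had 635753 reads (34401 RPM) in the mutant and 346713 reads (30328 RPM) in the wild type. By reads it ranked 6 of the 281 listed miRNAs in the mutant library and 5 in the wild-type library. The ratio was 1.13 (interval 1.13 to 1.14), an interval of counting error that excludes equality, with no replicate spread to set it against. Of the listed reads, miR-21a-5p took 5.62% in the mutant and 3.71% in the wild type. In the authors' deposited table its signed fold was -2.10, which stands for a lower level in the mutant on their scale. A whole-liver level does not tell fewer cells of a type from less RNA per cell. Its direction was set by the scaling: it was higher by RPM and by the sum of listed counts (1.52-fold), and lower under the other 4 scalings.

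Few reads were counted under the names of the near copies miR-21b and miR-21c. Each had 117 reads (6.33 RPM) in the mutant and 119 reads (10.4 RPM) in the wild type, the same counts for both names. miR-21b and miR-21c share a run of 11 bases, and reads that fit both names cannot be told apart in these counts. The same run lies within miR-21a-5p, so the counts do not show whether these reads came from miR-21b, miR-21c or miR-21a-5p. Their ratio was 0.608 (interval 0.467 to 0.792), within 2-fold. There were 5434 reads of miR-21a-5p for each read of miR-21c in the mutant and 2914 in the wild type, so their odds against miR-21a-5p were 0.536 times those of the wild type (interval 0.412 to 0.698). This ratio between names within a library does not depend on the scaling.

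miR-34a-5p, the p53-responsive guide strand, was higher in the mutant liver. It had 3990 reads (216 RPM) in the mutant and 294 reads (25.7 RPM) in the wild type. The ratio was 8.40 (interval 7.46 to 9.48), an interval far from equality. It ranked 70 of the 281 listed miRNAs in the mutant and 79 in the wild type. Among the 171 miRNAs that the authors' deposited table gives as higher, 120 had a larger RPM ratio and 50 a smaller one, and their median was 13.3. The ratio of miR-34a-5p therefore lay in the lower part of that group. It was at least 2-fold higher under 5 of 6 scalings and 1.27-fold higher (interval 1.13 to 1.43) with DESeq2 size factors.

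miR-34a-3p, the strand normally discarded from the hairpin, had 227 reads (12.3 RPM) in the mutant and 1 read (0.0875 RPM) in the wild type. The ratio of 140.4 had an interval of 25.0 to 5571, because a single wild-type read fixes it poorly. It ranked 9 among the 276 ratios and was the largest of the 4 strands, and its lower bound lay above the upper bound of 9.48 for miR-34a-5p. It was at least 2-fold higher under all 6 scalings, the smallest ratio being 21.2 with DESeq2 size factors.

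**Figure D1:**
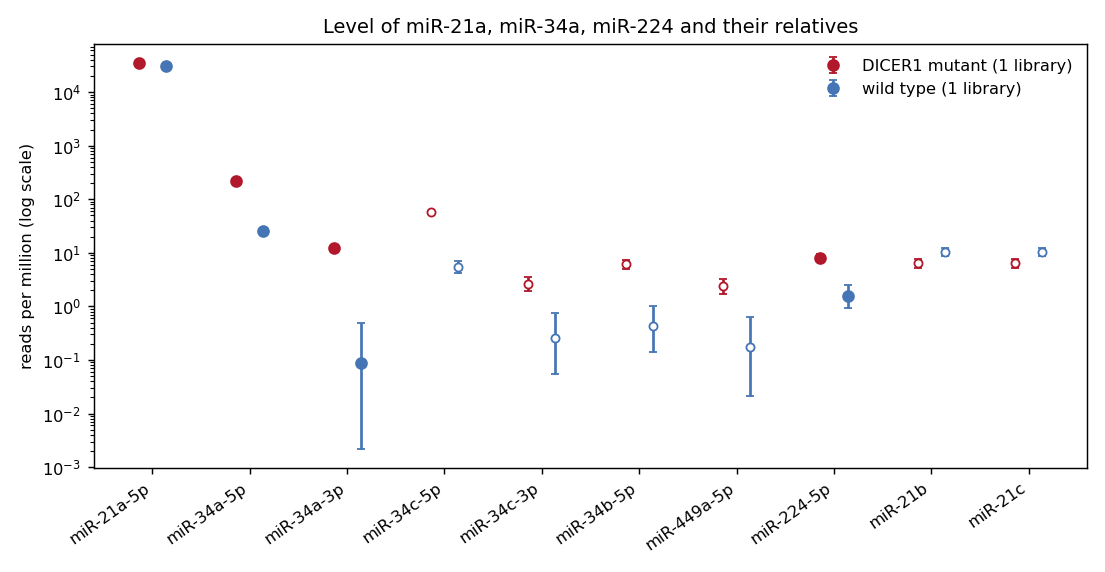
RPM on a log axis of each strand in the DICER1 mutant (red, left of each pair) and the wild-type library (blue), with exact Poisson 95% intervals of the read count. Filled points are the 4 strands described here and open points their relatives by seed or name. miR-21a-5p lies at 34401 RPM in the mutant and 30328 RPM in the wild type, and on this RPM scale the mutant point is above the wild-type point for every miR-34 and miR-449 strand and for miR-224-5p, of which miR-224-5p alone turns lower with DESeq2 size factors.

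The 2 strands of miR-34a stood in a different balance in the 2 libraries. The 5p strand made up 94.6% of the hairpin's reads in the mutant (interval 93.9 to 95.3) and 99.7% in the wild type (interval 98.1 to 99.99). The 3p strand accordingly made up 5.38% in the mutant and 0.339% in the wild type. The odds of a 5p against a 3p read were 0.0598 times those of the wild type (interval 0.00150 to 0.339), a quantity that does not depend on the scaling of the libraries. At the strand ratio of the mutant, the 294 wild-type 5p reads would go with 16.7 reads of the 3p strand, where 1 was counted. The 5p strand stayed the main strand in both livers.

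Lower 5p odds in the mutant were common among the listed hairpins. There were 62 hairpins with at least 10 reads per arm, counted over both libraries together. A hairpin is among them only if both its strands are listed, each with an authors' signed fold of at least 2 in size. The shares below therefore describe a selected set. The 3p arms of mir-34a and mir-154 passed the read minimum with 1 wild-type read each. Of the 62 hairpins, 21 (33.9%) had 5p odds at least 2-fold lower in the mutant with an interval excluding equality, and 2 (3.23%) had higher odds. Among these 2 was mir-199b, whose 3p counts are the same as those of mir-199a. Copies of a hairpin were also pooled under a common name, so the 62 are not all separate hairpins. The median odds ratio over the 62 was 0.71, and 49 were below 1. That of miR-34a ranked 3 from the lowest, after mir-1247 and mir-154, but 20 of the 62 odds ratios were below its upper bound. Its place in the order is therefore uncertain. The hairpin of miR-34c, its relative, had 1071 reads of the 5p and 49 of the 3p strand in the mutant and 62 and 3 in the wild type. Its odds ratio was 1.06 (interval 0.205 to 3.43), and the difference between these odds ratios of miR-34a and miR-34c was not tested.

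**Figure D2:**
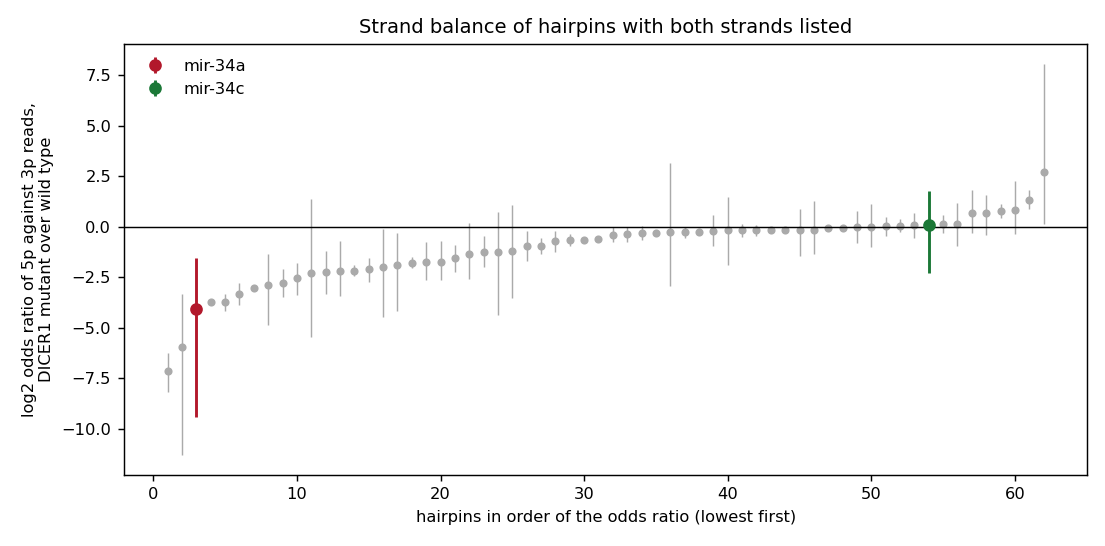
Log2 odds ratio of 5p against 3p reads, DICER1 mutant over wild type, in order from the lowest, with exact conditional 95% intervals. The 62 hairpins had both strands listed and at least 10 reads per arm over both libraries together. Values below 0 mean a smaller 5p share in the mutant. miR-34a (red) has rank 3 from the left with a wide interval, and miR-34c (green) lies near 0.

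All 6 listed strands of the miR-34 and miR-449 family were called higher by RPM, against 62% of all listed miRNAs. With DESeq2 size factors only miR-34a-3p was called higher, against 75 of all 276, while all 6 stayed above equality. The 5p strands are known as a family with a common seed, and miR-34b, miR-34c and miR-449 are known from multiciliated epithelia. The strands came from 4 of the 6 hairpins on the list, and mir-449b and mir-449c are not analysed here. miR-34c-5p had 1071 reads (58.0 RPM) in the mutant and 62 reads (5.42 RPM) in the wild type, a ratio of 10.7 (interval 8.27 to 14.0). miR-34b-5p, from a hairpin that starts 528 bases from that of miR-34c on chromosome 9, had 112 reads in the mutant and 5 in the wild type, a ratio of 13.9 (interval 5.76 to 43.5). miR-449a-5p, from within Cdc20b on chromosome 13, had 44 reads in the mutant and 2 in the wild type, a ratio of 13.6 (interval 3.55 to 116). The intervals of these 3 relatives overlap that of miR-34a-5p. miR-34c-3p had 49 reads in the mutant and 3 in the wild type, a ratio of 10.1 (interval 3.26 to 50.7).

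Together the 4 listed 5p strands of the family had 5217 reads (282 RPM) in the mutant and 363 reads (31.8 RPM) in the wild type, a ratio of 8.89 (interval 7.99 to 9.92). miR-34a-5p supplied 76.5% of them in the mutant (interval 75.3 to 77.6) and 81.0% in the wild type (interval 76.6 to 84.9). miR-34c-5p supplied 20.5% in the mutant (interval 19.4 to 21.7) and 17.1% in the wild type (interval 13.4 to 21.4). miR-34a-5p was thus the most abundant of the 4 in both livers. The odds of a miR-34a-5p against a miR-34c-5p read were 0.786 times those of the wild type (interval 0.583 to 1.05), which includes equality. The odds of a miR-34a-3p against a miR-34c-3p read were 13.9 times those of the wild type (interval 1.08 to 733), which excludes equality but rests on 1 and 3 wild-type reads.

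miR-224-5p was rare in both livers and higher in the mutant. It had 149 reads (8.06 RPM) in the mutant and 18 reads (1.57 RPM) in the wild type. The ratio was 5.12 (interval 3.13 to 8.88). It lay close to the edge of the list: of the 171 miRNAs that the authors' deposited table gives as higher, 163 had a larger RPM ratio and 7 a smaller one. The authors' deposited signed fold was 2.14. It was at least 2-fold higher under 4 of the 6 scalings, 1.88-fold higher with TMM factors, and turned to 0.774 with DESeq2 size factors (interval 0.473 to 1.34). The 3p strands of miR-224 and miR-21a and both strands of its neighbour miR-452 are not analysed here.

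The contrast between the abundant strand and the others does not depend on the scaling when each is set against miR-21a-5p within its library. Its direction was fixed by the listing, so it adds no separate evidence of a difference. The authors' signed fold was -2.10 for miR-21a-5p and 3.52, 56.1 and 2.14 for miR-34a-5p, miR-34a-3p and miR-224-5p, and every listed fold was at least 2 in size. There were 159 reads of miR-21a-5p for each read of miR-34a-5p in the mutant and 1179 in the wild type, so the odds of miR-34a-5p against miR-21a-5p were 7.40 times those of the wild type (interval 6.57 to 8.36). For miR-224-5p there were 4267 reads of miR-21a-5p per read in the mutant and 19262 in the wild type, an odds ratio of 4.51 (interval 2.76 to 7.83). For miR-34a-3p there were 2801 in the mutant and 346713 in the wild type, an odds ratio of 123.8 (interval 22.0 to 4911). Set against miR-21a-5p in this way, 171 of the 275 other listed miRNAs (62.2%) had odds at least 2-fold higher in the mutant and 29 (10.5%) had odds that much lower. Between miR-34a-5p and miR-224-5p the odds ratio was 1.64 (interval 0.932 to 2.73), which includes equality.

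**Figure D3:**
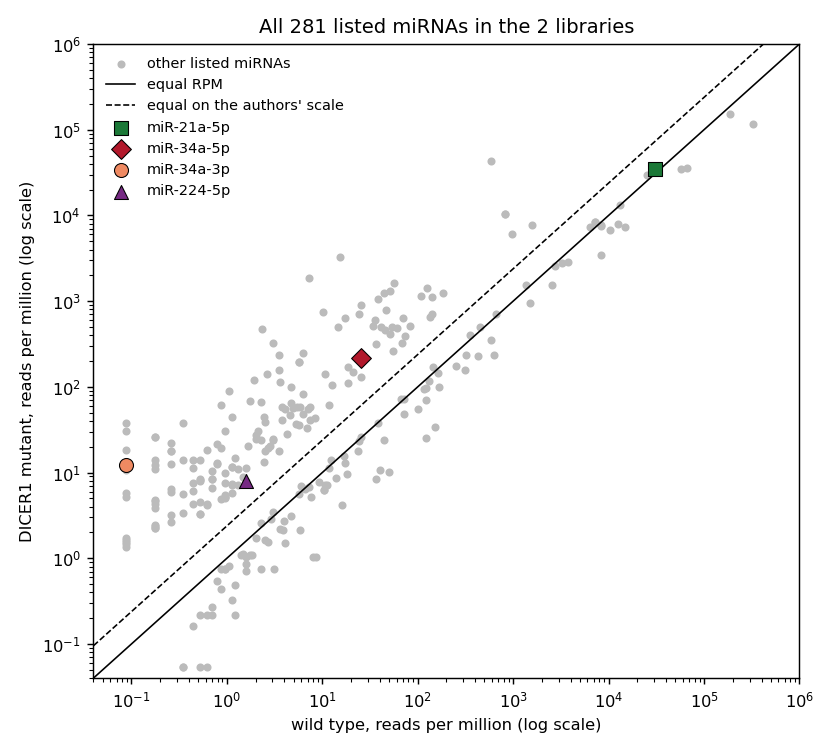
RPM of the 281 listed miRNAs in the wild-type library (horizontal) and the DICER1 mutant library (vertical), both on log axes, with the 4 strands marked. The solid line is equal RPM and the dashed line is equality on the authors' scale, around which no miRNA is listed. miR-21a-5p lies just above the solid line, and miR-34a-5p, miR-34a-3p and miR-224-5p above the dashed one.

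The scaling moved all ratios together and so decided the direction of miR-21a-5p. It was 1.52-fold higher by the sum of listed counts, and its ratio was 0.756 without the top miRNA of each library, 0.476 with the authors' library factors, 0.417 with TMM factors and 0.171 with DESeq2 size factors. TMM and DESeq2 factors were computed on the listed rows, most of which were higher by RPM. The order of the 4 strands by ratio is fixed under any scaling: miR-34a-3p, miR-34a-5p, miR-224-5p, miR-21a-5p. The intervals of miR-34a-5p and miR-224-5p overlap.

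**Figure D4:**
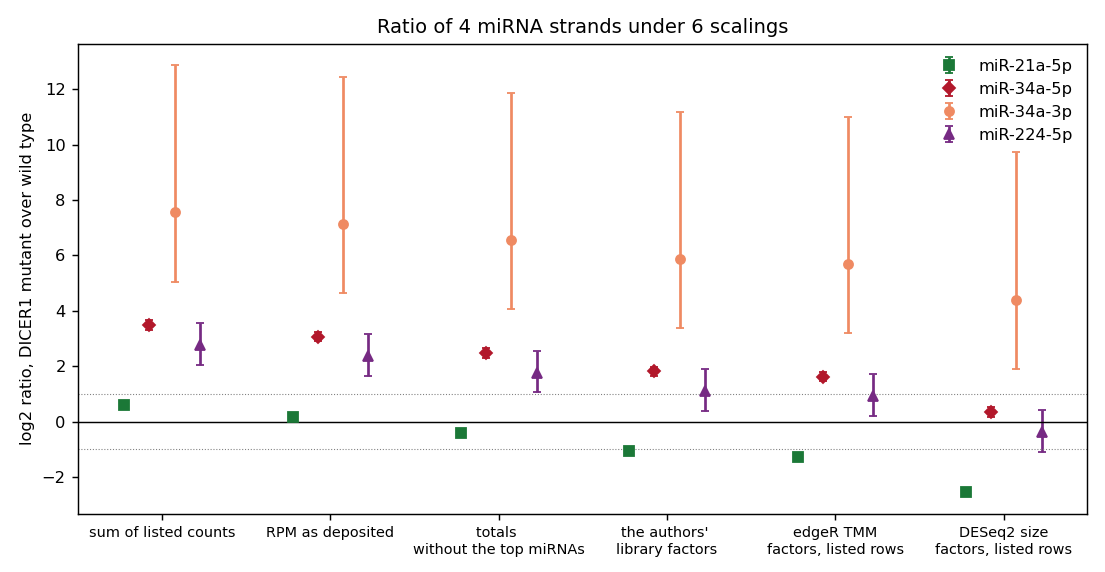
Log2 ratio, DICER1 mutant over wild type, of the 4 strands under 6 scalings, with 95% intervals for counting error, the solid line at equality and dotted lines at 2-fold. miR-34a-3p and miR-34a-5p stay above 0 throughout, miR-224-5p reaches below 0 with DESeq2 size factors, and miR-21a-5p is above 0 in the first and second scalings and below it in the other 4.

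Among strands from 23 hairpins known to be raised in liver tumours, 15 from 11 hairpins were listed, and 14 of these were higher in the mutant by RPM. The other 12 hairpins are not analysed here, so the count does not describe the whole list. Of the 14 higher strands, 11 were not among the strands chosen for this report. The list's median log2 fold change was 2.99, beside 2.74 for all 276 listed miRNAs and 62% called higher. The exception was miR-21a-5p, which was also the most abundant of the list. Next by mean RPM of the 2 libraries was miR-301a-3p, at 506 RPM in the mutant and 53.5 RPM in the wild type (9.44-fold, interval 8.70 to 10.3). In the wild type alone miR-146b-5p and miR-15b-5p were more abundant than it. miR-146b-5p, which dampens NF-κB signalling, had 482 RPM in the mutant and 60.5 RPM in the wild type (7.97-fold, interval 7.38 to 8.62). miR-15b-5p, which represses Bcl2 and cell-cycle genes, had 390.03 RPM in the mutant and 73.7 RPM in the wild type (5.30-fold, interval 4.93 to 5.69). By RPM ratio miR-34a-5p ranked 7 and miR-224-5p 14 of the 15. With DESeq2 size factors 4 of the 15 were called higher, a share near that of all listed miRNAs (75 of 276). On that scale 3 of the 15 lay below equality, miR-21a-5p and miR-224-5p among them.

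Of the p53-responsive list, 14 strands from 11 of 14 hairpins were listed, 9 higher, 2 lower and 3 neither, with a median log2 fold change of 3.29, beside 62% higher and a median of 2.74 for all. The 9 higher strands included all 5 of miR-34a, miR-34b and miR-34c, and miR-34a-5p had the smallest ratio of the 9. miR-141-3p, an epithelial miRNA of the miR-200 family, had 1046 RPM in the mutant and 38.1 RPM in the wild type (27.5-fold, interval 25.0 to 30.3). The abundant liver miRNA miR-192-5p was lower, at 117503 RPM in the mutant and 326657 RPM in the wild type (ratio 0.36), as was miR-194-5p, at 3493 RPM in the mutant and 8375 RPM in the wild type (ratio 0.417). miR-107-3p had a ratio of 1.07 (interval 1.04 to 1.10), near that of miR-21a-5p. The list thus held strands with ratios on both sides of equality. With DESeq2 size factors 4 of the 14 were at least 2-fold higher and 5 lower. These shares are near those of all listed miRNAs on that scale, 75 higher and 105 lower of 276.

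**Figure D5:**
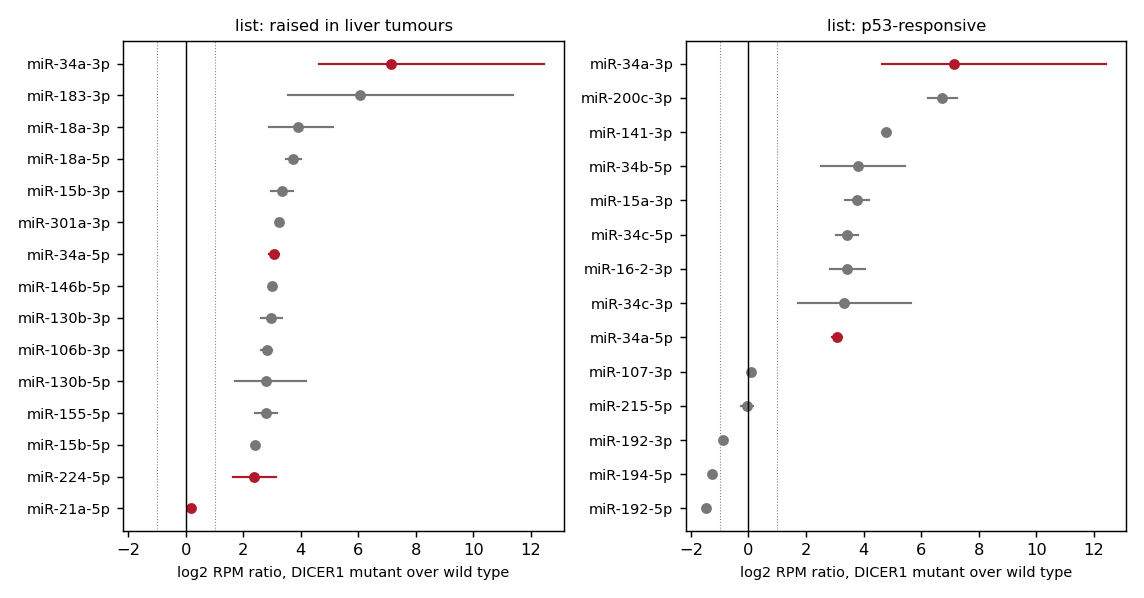
Log2 RPM ratio, DICER1 mutant over wild type, with 95% intervals for counting error, of the listed strands known to be raised in liver tumours (left) and of the p53-responsive ones (right). Red marks the strands described here. miR-21a-5p is lowest in the left panel at 0.18, and the right panel runs from miR-192-5p below -1 to miR-34a-3p at 7.13.

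The listed miRNAs most like each strand, by distance in log2 RPM over the 2 libraries, differed between the 4. Nearest to miR-21a-5p was miR-26a-5p, a growth-restraining miRNA, at 29964 RPM in the mutant and 25286 RPM in the wild type (distance 0.33), followed by miR-148a-3p and miR-30a-5p. Nearest to miR-34a-5p was miR-181d-5p, at 169 RPM in the mutant and 18.5 RPM in the wild type (distance 0.59), followed by miR-106b-3p and miR-335-3p. Nearest to miR-34a-3p was miR-370-3p, with a ratio of 121.9 (distance 0.20), followed by miR-665-3p and miR-433-3p, all with 1 or 2 wild-type reads. Nearest to miR-224-5p was miR-185-3p, at 8.82 RPM in the mutant and 1.49 RPM in the wild type (distance 0.15), followed by miR-3964 and miR-132-5p. With 2 libraries such likeness says only that level and ratio are similar.

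Marker miRNAs of several cell types were listed beside the 4 strands, and their counts by RPM are to be read against 62% called higher and 7.25% called lower over all 276 miRNAs. With TMM factors 152 of the 276 were called higher and 105 lower, and with DESeq2 size factors 75 and 105. All 9 listed leukocyte strands, from all 6 hairpins of that list, were higher by RPM, with a summed level of 10482 RPM in the mutant and 1922 RPM in the wild type, but 7 were called higher with TMM factors, and with DESeq2 size factors 2 were called higher and 2 lay below equality. The endothelial and mesenchymal list had 6 strands in the table, from 3 of 6 hairpins, and all were higher, at 12339 RPM in the mutant and 966 RPM in the wild type. They were both strands of miR-214, miR-199b and miR-199a. On that list mir-145a, mir-143 and mir-126a are not analysed here, so the count does not describe the whole list. miR-199b-3p and miR-199a-3p had the same counts, 192126 reads in the mutant and 9289 in the wild type. The 6 strands are therefore not 6 separate counts. All 6 strands were above equality under the 6 scalings, but with DESeq2 size factors 2 were called higher. Of 11 biliary and epithelial strands, from all 8 hairpins of that list, 8 were higher, a share near that of all miRNAs, and 3 neither, at 5910 RPM in the mutant and 2105 RPM in the wild type. With DESeq2 size factors 5 of them were called higher and 3 lower. Of 12 hepatocyte strands, 3 were lower and 9 neither by RPM, at 326469 RPM in the mutant and 602432 RPM in the wild type. By the sum of listed counts 1 was called lower, and 5 of the 12 lay above equality. Without the top miRNAs in the totals 7 were called lower. With the authors' library factors, TMM factors or DESeq2 size factors all 12 were called lower, as were 105 of all 276 under each. All 12 are given as lower in the authors' deposited table, so that last count was fixed by the listing. The 12 strands ran from 12.8 to 153904 RPM in the mutant and from 17.4 to 326657 RPM in the wild type. miR-22-3p and miR-192-5p were the most abundant of them in both libraries. miR-122-5p, 1 of the 3 lower strands, had 7303 RPM in the mutant and 14951 RPM in the wild type (ratio 0.488, interval 0.485 to 0.492). All 281 listed miRNAs, markers or not, had at least 1 read in each library. The part of these cell types in the levels of the 4 strands was not tested.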

How the data were processed

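Small RNA libraries from total liver RNA were prepared with a SMARTer smRNA-seq kit for single-end sequencing, and reads were mapped to mm10 and miRBase 22.1 and assigned to the 5p or 3p arm, per the labels' protocols. The submitters' processing notes name cutadapt. Not given in the sources used here are the aligner, the rule for reads that fit several miRNAs and any use of molecular identifiers.

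A single table deposited by the authors holds raw read counts per mature miRNA, RPM values made by the authors from those counts, and log2 values that the authors made by adding 1 to the RPM multiplied by a factor per library, 0.611 (mutant) or 1.46 (wild type). The authors also deposited a signed fold score and p-values from the 2 libraries, and the p-values were not used. Library totals were recovered from count over RPM. The listed rows held 61.2% of the mutant and 81.8% of the wild-type reads, and 3 reads correspond to 0.162 RPM in the mutant and 0.262 RPM in the wild type.

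Ratios of RPM, mutant over wild type, have exact conditional binomial (Clopper-Pearson) 95% intervals, and odds ratios exact conditional ones, except in the count relative to miR-21a-5p over all listed miRNAs, which used Woolf intervals with 0.5 added to each count. A call needed at least 10 reads over both libraries, a 2-fold difference and an interval excluding 1, and 5 miRNAs fell below that minimum. List medians use log2 fold changes with 0.5 reads added, scaled to library size. In the summed levels of the lists, strands with identical counts were summed once. The intervals cover counting error only and treat each read as a separate molecule. Reads copied by PCR are not separate molecules, so the intervals can be too narrow even for counting error. The calculations were tested on simulated counts. Alternatives were other scalings (edgeR 4.0.16 TMM and DESeq2 1.42.0 size factors on the listed rows among them), pseudocounts, read minimums and fold limits. The 4 strands, the 7 lists and the tests were chosen with earlier results of these data known. Named miRNAs were the 4 strands, listed miRNAs sharing a seed or hairpin cluster with them, the 4 most abundant and any lower strands of the tumour and p53 lists, and the 3 nearest listed miRNAs of each strand. miR-21b, miR-34c-3p and the hairpins mir-1247 and mir-154 were named after their values were seen. The members of the endothelial and mesenchymal list were also named after the results were seen. Python 3.11.15, scipy 1.17.1 and Biopython 1.88 were used.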

Additional observations from a re-analysis of the deposited data

How the results depend on the processing

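No paired analysis was possible because each genotype has 1 library, and for the same reason no library could be left out. The scaling was the choice that changed results most. The interval of the odds ratio between miR-34a-5p and miR-224-5p excluded equality only with 0.5 added to each count. By the sum of listed counts the ratio of miR-21a-5p was 1.52 and that of miR-34a-5p 11.2, with medians of 3.87 (miR-34 and miR-449 list), 3.69 (p53 list, 1 strand lower) and 3.41 (tumour list). With the authors' library factors the ratios of miR-21a-5p, miR-34a-5p and miR-224-5p were 0.476, 3.52 and 2.15, 105 listed miRNAs were lower, and the medians were 2.28, 2.08 and 1.74, with 5 lower p53 strands and 1 lower tumour strand. With TMM factors the ratios were 0.417, 3.09 and 1.88, 105 miRNAs were lower, and the medians were 2.10, 1.90 and 1.55, with 5 and 1 strands lower. With DESeq2 size factors miR-21a-5p was at 0.171, miR-34a-5p at 1.27, miR-34a-3p at 21.2 and miR-224-5p, reversed, at 0.774, 75 miRNAs were higher and 105 lower, and the medians were 0.85, 0.64 and 0.27, with 1, 4 and 4 strands higher and 0, 5 and 1 lower. DESeq2 factors from 2 libraries set the median listed ratio to equality by construction. Without miR-22-3p and miR-192-5p in the totals miR-21a-5p was at 0.756 and miR-34a-5p at 5.60, 58 miRNAs were lower, and the medians were 2.92, 2.73 and 2.41. With at least 100 reads 13 miRNAs were lower and the p53 median was 3.39. The count of lower miRNAs was 43 at 1.5-fold and 8 at 4-fold. The odds ratio of miR-34a-3p against miR-21a-5p was 82.7 and the strand odds ratio of miR-34a 0.0893 with 0.5 added to each count, both within the exact intervals. The count of 1 wild-type read limits the precision of both. By strand odds miR-34a ranked 3 from the lowest among 60 hairpins with at least 50 reads per arm over both libraries together. Its 3p arm passes this minimum with 227 mutant reads and 1 wild-type read, so the stricter minimum cannot test that limit.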
